A study of Homo sapiens with 26 samples.

Results

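The copper chaperones, copper transporters and metallothioneins of a human neuroblastoma line were examined as 10 genes, ATOX1, CCS, COX17, SLC31A1, SLC31A2, ATP7A, ATP7B, SOD1, MT2A and MT1X. They were picked by symbol from the 26485 genes of the deposited tables, and every one of them was found in both tables. ATOX1 was put on the list because its level was already known to be low in the shAMB cells after doxycycline and in the xenografts labelled RUNX1T1 KO. For that gene the values in those comparisons are given as a description, with no test.

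Copper is needed by a small set of enzymes and is toxic when free, so cells pass it from protein to protein. SLC31A1 (also called CTR1) carries copper across the plasma membrane, and SLC31A2 (CTR2) sits largely on endosomal and lysosomal membranes. Inside the cell 3 routes lead away from uptake: ATOX1 hands copper to the P-type ATPases ATP7A and ATP7B, which load secreted enzymes in the Golgi and export excess copper, CCS loads and matures the cytosolic superoxide dismutase SOD1, and COX17 carries copper towards cytochrome c oxidase in mitochondria. Metallothioneins such as MT2A and MT1X are small cysteine-rich proteins that bind zinc and copper, and their genes are switched on by the zinc-sensing factor MTF1.

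The study asked what happens in neuroblastoma cells when RUNX1T1, a transcriptional co-repressor, is knocked down. KELLY cells, an established human MYCN-amplified neuroblastoma line, carried a doxycycline-inducible lentiviral vector with GFP that was empty (EV) or held 1 of 2 hairpins against RUNX1T1 (sh4 or shAMB), and each line was given doxycycline or the solvent DMSO for 72 h, with 3 libraries in each of the 6 groups. In the second experiment KELLY cells with a RUNX1T1 hairpin were engrafted under the skin of female NOD SCID gamma mice, which lack mature lymphocytes, fed control food (labelled wild type) or doxycycline food (labelled RUNX1T1 KO), with 4 tumour libraries in each group. From the names used by the study, the shAMB hairpin appears to be the one in the xenografts, and "KO" stands for an induced hairpin, not for a deleted gene. No xenograft carried the empty vector, so doxycycline food and hairpin cannot be told apart there. Each line was a stable transduced population of the same parent, and no source ties the libraries to separate cultures, so p-values measure the spread between libraries. In these bulk samples, fewer cells expressing a gene and less RNA per cell cannot be told apart.

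The 18 culture libraries held 35115915 to 54736733 counts and the 8 xenograft libraries 47346063 to 62378060. RUNX1T1 mRNA, the target, did not pass the test between the induced or KO-labelled libraries and their controls: its log2 fold change was 0.06 with the shAMB hairpin, -0.11 with sh4, -0.16 with the empty vector and -0.23 between the xenograft groups (edgeR adjusted p = 0.378, 0.117, 0.672 and 0.229), so the libraries are named here by their labels. The shAMB effect on RUNX1T1 was higher than that of EV by 0.21, and with DMSO the sh4 line was below EV by a log2 difference of -0.29 (adjusted p = 0.0353 and 0.0144). At the protein level, the paper reports less RUNX1T1 in KELLY cells with each of its hairpins after doxycycline. It also reports loss of RUNX1T1 staining in KELLY xenografts after knockdown. These libraries hold RNA only, so knockdown of the protein was not tested here. All 12 sympathetic neuroblastoma markers were detected in every group, with summed levels, in counts-per-million (CPM), of 5449 to 8112 in the culture groups other than shAMB with doxycycline, 9396 to 10282 CPM there, 5725 to 6929 CPM in control xenografts and 8477 to 11807 CPM in the KO-labelled ones. Summed endothelial, leukocyte and hepatocyte and enterocyte markers stayed at or below 2.67 CPM in every library, while 6 fibroblast markers summed to 15.5 to 86.9 CPM. Libraries also differed in how strongly counts rose with the GC content of a gene. The slope ran from -0.324 to 0.309 log2 units per 10 GC points in culture and from -0.281 to 0.296 in the xenografts. It is given beside those of the 10 genes that moved with it.

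SOD1 and COX17 were the most abundant of these mRNAs in every group, while ATP7B, the metallothioneins and SLC31A2 were among the scarcest in EV cells. Levels were compared between genes in transcripts-per-million (TPM), which divides by transcript length. In EV cells with DMSO, SOD1 measured 653 ± 36.9 TPM, COX17 371 ± 34.3 TPM and ATOX1 92.3 ± 11.04 TPM (SD, n = 3). SLC31A1 followed at 19.1 ± 1.60 TPM and ATP7A at 11.5 ± 1.23 TPM. Each of these 5 was separated from its neighbours in the order, with no overlap between libraries. MT2A at 4.40 TPM overlapped both CCS at 5.08 TPM and SLC31A2 at 3.87 TPM, which did not overlap each other. MT1X at 2.23 TPM and ATP7B at 1.84 TPM overlapped as well. ATOX1, the chaperone, was thus at a TPM level 8.14 ± 1.73 times that of ATP7A, the pump it serves, within the same library. The size of this ratio depends on how length is scaled: in CPM per kb of gene length ATOX1 was at 28.9 and ATP7A at 5.73. CCS was at 0.00780 ± 0.00118 of the level of SOD1, the enzyme it loads.

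**Figure D1:**
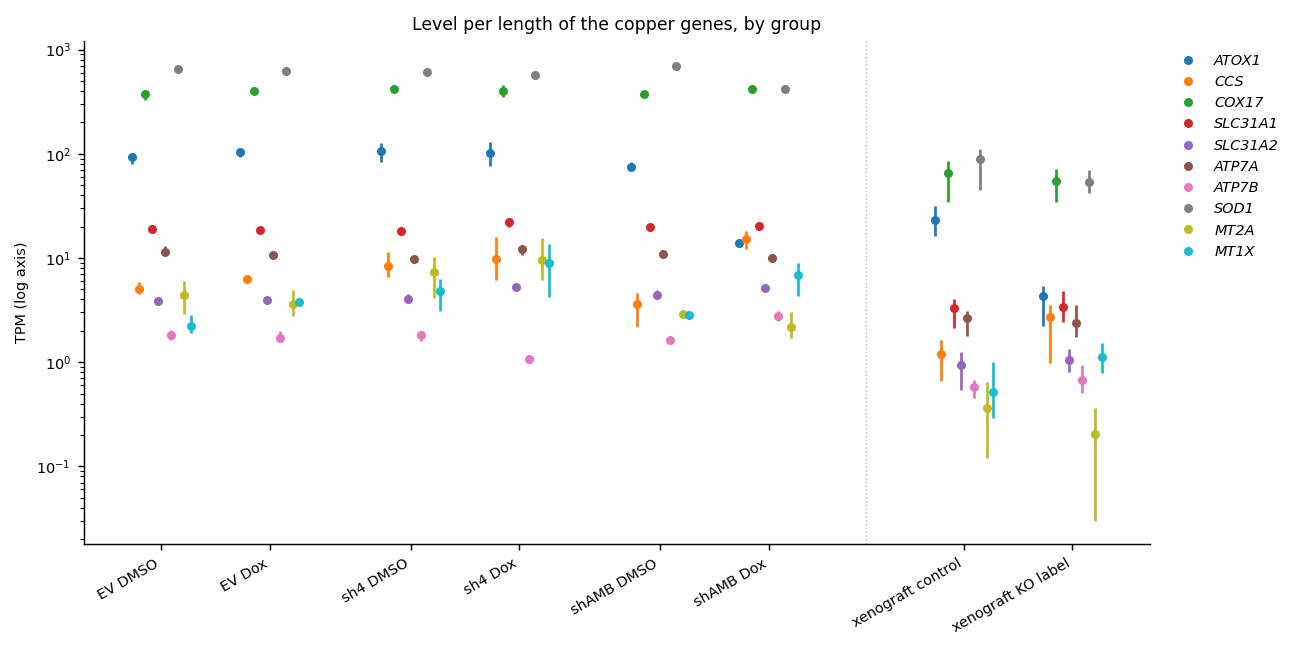
Mean TPM (log axis) of the 10 genes in each of the 8 groups, with lines from the lowest to the highest library. SOD1 and COX17 lie highest in every group, and ATOX1 is the third highest in every group except shAMB with doxycycline, where it is the fifth.

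On the TPM scale that order shifted in shAMB cells given doxycycline. There SOD1 (421 ± 27.2 TPM) and COX17 (414 ± 34.2 TPM) overlapped, and ATOX1 stood at 13.8 ± 0.569 TPM, within the range of CCS (15.2 ± 2.88 TPM). The ratio of ATOX1 to ATP7A went from 6.10 to 7.62 in the shAMB libraries with DMSO to 1.35 to 1.39 with doxycycline, a description since ATOX1 was chosen for its level there. The ratio of CCS to SOD1 went from 0.00297 to 0.00695 up to 0.0276 to 0.0460. In the KO-labelled xenografts COX17 (54.4 ± 15.1 TPM) and SOD1 (54.0 ± 13.1 TPM, SD, n = 4) overlapped, as they did in the control xenografts (44.8 to 111 TPM of SOD1 and 34.8 to 85.8 TPM of COX17), and the ratio of ATOX1 to ATP7A was 1.27 to 2.49, against 5.44 to 11.4 in control xenografts. The xenograft table was normalised separately, so its TPM are not set against those of the cultures. These overlaps rest on how TPM scales length. In shAMB with doxycycline SOD1 was at 131 to 156 CPM and COX17 at 40.2 to 47.7 CPM, over gene lengths of 965 and 423 bases. CPM per kb was compared with TPM only in EV cells with DMSO, so the shifts in order are shown for TPM alone.

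The promoters of these genes differ in how many metal response elements they hold. The element, bound by MTF1, has the core TGCACNC or TGCGCNC, and the 300 bases around each RefSeq start (250 before, 50 after, GRCh38.p14) were searched on both strands. Of 35114 promoters 29.5% held the core at least once. MT2A held 8 matches, a number reached by 0.0199% of promoters, and MT1X held 4, reached by 0.601%. ATOX1 and CCS held 2 matches each, reached by 8.6% of promoters, but in both genes these are the same palindromic letters read on the 2 strands. COX17 held 1 match in each of its 2 promoters, ATP7B 1, 2 and 0 in its 3 promoters, and SLC31A1 and ATP7A none. The first 2 ATP7B promoters overlap, and the same TGCGCCC match is counted in both. ATP7A instead held the E-box CACGTG, found in 7.26% of promoters. A further searched core, TGACNNNGC, was found in 13.3% of promoters. It had 1 match in ATOX1, CCS, MT1X and MT2A and in 1 of the 2 COX17 promoters. A match is a run of letters and not a shown binding site. SLC31A2 and SOD1 were not searched. The windows below show 2 elements of each metallothionein and 1 of each chaperone and of ATP7B, on the strand of the gene, with the match in capitals.
MT2A, chr16:56608485-56608514, match from base -88: cagcgcggggcGTGTGCAggcagcgcccgg
MT2A, chr16:56608519-56608548, match from base -54: ggcggggctttTGCACTCgtcccggctctt
MT1X, chr16:56682337-56682366, match from base -122: tcacgggttgcTGCACCCggcccaggatcg
MT1X, chr16:56682406-56682435, match from base -53: ggcggggcctcTGCGCCCggccctcttccc
ATOX1, chr5:151758633-151758662, minus strand, match from base -20: ccaggcctctaGTGCGCActctcggaagcg
CCS, chr11:66593128-66593157, plus strand, match from base -46: cagggccttgcGTGCGCAcgcactaggagg
COX17, chr3:119677451-119677480, minus strand, match from base -63: tttgcctcttcTGCGCACgcgctcctttta
ATP7B, chr13:52012026-52012055, minus strand, match from base -36: tggctggccttTGCGCACagcggatcgatt

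Among the chaperones, ATOX1 was several times lower and CCS higher in shAMB cells given doxycycline, whereas COX17 showed no such shift. ATOX1 (chr5:151742316-151772532, minus strand, GENCODE v44 on hg38) measured 10.8, 10.6 and 13.02 CPM in the shAMB libraries with DMSO and 1.93, 1.80 and 1.82 CPM with doxycycline. In counts this was 437, 409 and 487 against 86, 103 and 79. The libraries with doxycycline were lower by 2.63 on the log2 scale, a fold of 6.20, and every one of them lay below every other culture library. In the xenografts ATOX1 measured 9.92, 16.3, 18.2 and 15.7 CPM with control food and 3.40, 2.41, 2.97 and 1.81 CPM in the KO-labelled tumours. The lowest control was thus above the highest KO-labelled library, and the fold was 5.67, or 2.50 on the log2 scale. Removing each library's trends with GC content and gene length, an alternative chosen after seeing the data, gave log2 fold changes of -2.41 in shAMB and -2.28 in the xenografts.

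The sh4 hairpin did not give a difference of that size. ATOX1 measured 19.6, 16.8 and 12.9 CPM in sh4 cells with DMSO and 10.7, 12.9 and 18.1 CPM with doxycycline, and 12, 14.6 and 15.9 CPM against 16.6, 18 and 14.7 CPM in EV cells. Both pairs of groups overlapped. The log2 fold change was -0.24 in sh4 (SE 0.18, 95% interval -0.62 to 0.13, edgeR adjusted p = 0.286) and 0.22 in EV (SE 0.18, adjusted p = 0.672). The sh4 value rested on replicate 3 with doxycycline: without that library it was -0.48 (adjusted p = 0.0198). It turned to 0.02 with the GC and length trends removed. Outside shAMB with doxycycline, the ATOX1 level moved with the GC slope of the culture libraries, from 10.6 CPM at the lowest slope of -0.324 to 19.6 CPM at a slope of 0.271. It did so although its longest transcript holds only 44.7% GC, against 60.9% for CCS. The values with GC and length trends removed use that GC content. Whether it fits the ATOX1 transcripts that were counted, at a gene length of 489 bases, was not tested. The shAMB libraries with doxycycline had slopes of 0.0987, 0.223 and 0.309, and those with DMSO had only negative slopes. Slope and treatment thus cannot be told apart in that line, and the part of the slope in the ATOX1 values was not tested. The doxycycline effect in shAMB was lower than in EV by 2.85 and lower than in sh4 by 2.39 on the log2 scale, both given without a test.

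ATOX1 shares the start of its gene model with G3BP1, which lies on the opposite strand, over 2.48% of its exon bases. Whether counting used strand is not given in the sources used here. G3BP1, which encodes a stress granule protein, rose by 0.18 in sh4 and fell by 0.36 in shAMB (log2, edgeR adjusted p = 0.0189 and 4.25e-05), far less than the ATOX1 difference in shAMB. The nearest gene of the tables at lower coordinates, SPARC, a matrix glycoprotein 55341 bases away, rose by 0.45 in sh4 and fell by 0.55 in shAMB (log2, adjusted p = 1.73e-06 and 7.82e-08). The nearest at higher coordinates, GLRA1, a glycine receptor subunit 49981 bases away, rose by 1.33 in the xenografts (log2, adjusted p = 1.81e-04). In shAMB GLRA1 was at 0.79 (adjusted p = 0.0506) and in the xenografts SPARC at -0.19 (adjusted p = 0.254).

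By Pearson correlation of log2 CPM with ATOX1, taken as the smaller of the value over the 18 culture and over the 8 xenograft libraries, the closest of 14670 genes were CMTM7, ESYT1, KLHDC3, SCMH1 and PHGDH, with r of 0.991, 0.991, 0.990, 0.990 and 0.989. PHGDH starts serine synthesis, and its log2 fold change was -2.19 in shAMB and -2.31 in the xenografts. The other 4 genes ranged from -1.58 to -0.96 in shAMB and from -1.89 to -1.19 in the xenografts. These libraries share their groups and their composition, so the correlations are descriptions.

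**Figure D2:**
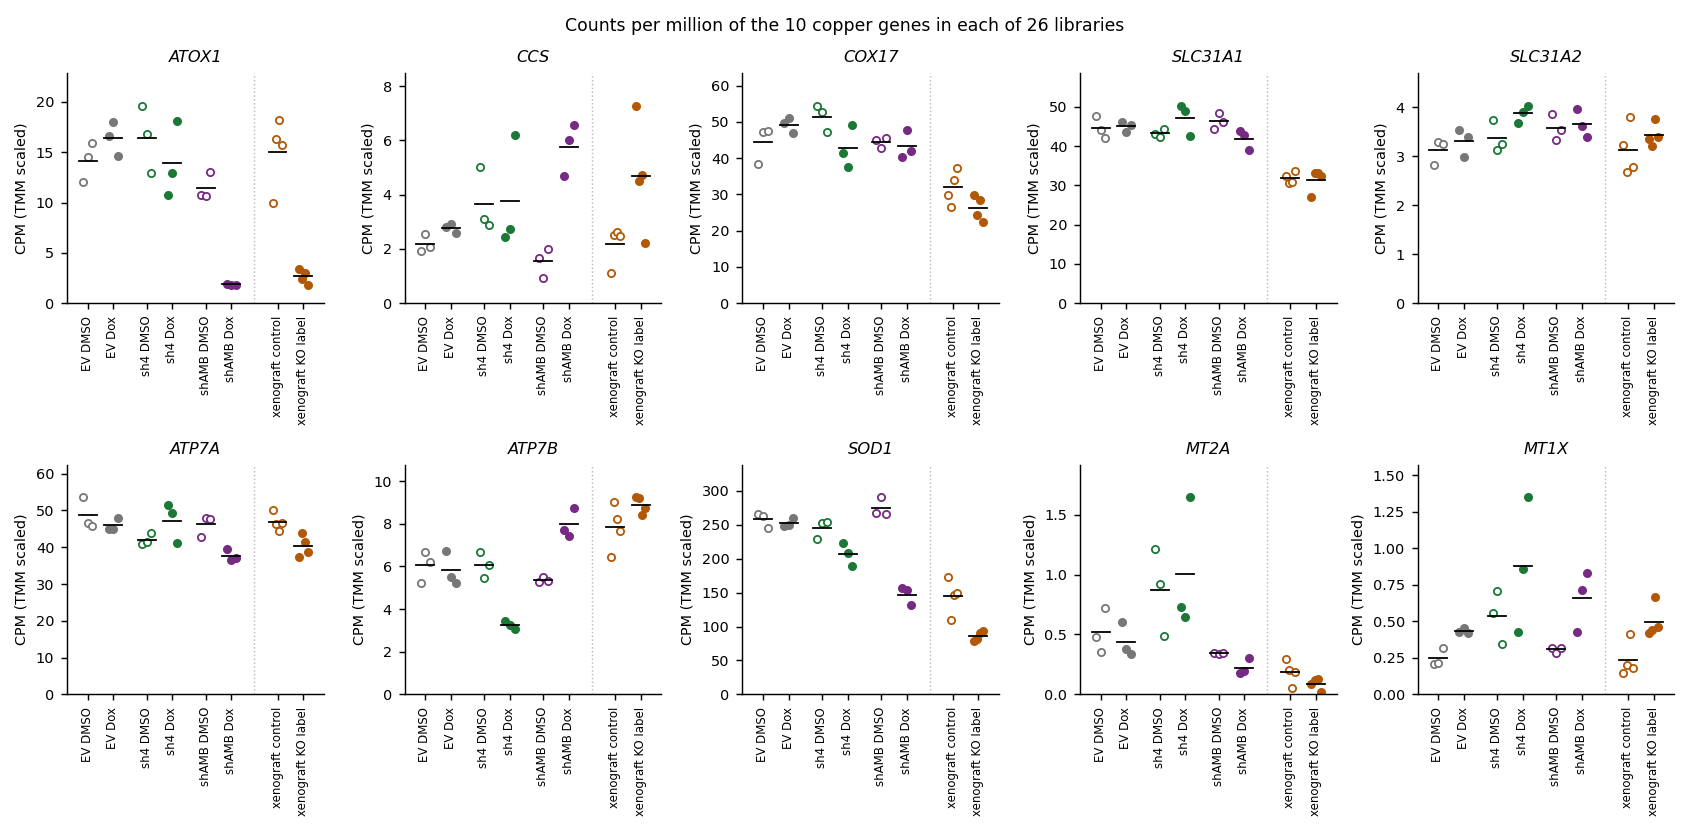
CPM of the 10 genes in each library, 1 panel per gene, with open points for DMSO or control food, filled points for doxycycline or the KO label, and a bar at each group mean. ATOX1 lies at 1.80 to 1.93 CPM in shAMB with doxycycline against 10.6 CPM or more in every other culture library, and SOD1 is low in the same group.

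CCS (chr11:66593153-66606019, plus strand) rose in shAMB cells. It measured 1.68, 0.936 and 2.01 CPM with DMSO and 4.68, 6.02 and 6.55 CPM with doxycycline, so that the groups did not overlap. The log2 fold change was 1.90 (SE 0.34, 95% interval 1.18 to 2.62, edgeR adjusted p = 1.48e-04), a fold of 3.73. EV cells held 1.92, 2.56 and 2.08 CPM against 2.80, 2.92 and 2.58 CPM, with a log2 change of 0.34 (SE 0.34, adjusted p = 0.677). The difference between the shAMB and EV effects passed the test at 1.56 (SE 0.48, adjusted p = 0.0144). Sh4 cells spread widely, from 2.86 to 5.02 CPM with DMSO and from 2.43 to 6.18 CPM with doxycycline, with a log2 change of 0.04 (SE 0.32, adjusted p = 0.938), and the sh4 effect was lower than that of shAMB by 1.86 (SE 0.46, adjusted p = 0.00285).

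CCS also rose in the xenografts, less clearly. It measured 1.11, 2.51, 2.62 and 2.48 CPM in controls and 7.27, 4.50, 4.72 and 2.23 CPM in KO-labelled tumours. Replicate 4 of the KO-labelled group fell within the controls. The log2 fold change was 1.10 (SE 0.36, edgeR adjusted p = 0.029), and the adjusted p was 0.0519 to 0.0731 without control replicate 1, 2 or 4 or KO-labelled replicate 1, 2 or 3, with log2 fold changes of 0.81 to 1.17.

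Of the 10 genes CCS has the highest GC content, 60.9% of its longest transcript, and its level moved with the GC slope of the libraries. The slopes were -0.172, -0.324 and -0.161 in shAMB with DMSO and 0.0987, 0.223 and 0.309 with doxycycline. The sh4 libraries with the highest slopes, DMSO replicate 1 (0.271) and doxycycline replicate 3 (0.252), held 5.02 and 6.18 CPM of CCS, like shAMB with doxycycline. In the xenografts the extreme CCS libraries, control replicate 1 and KO-labelled replicates 1 and 4, had slopes of -0.281, 0.296 and -0.252. Among the 5 xenograft libraries with slopes between 0.0100 and 0.0908, CCS was 2.48 to 2.62 CPM in 3 controls and 4.50 and 4.72 CPM in 2 KO-labelled tumours. With the trends of GC and length removed, the log2 fold change of CCS was 1.30 in shAMB (adjusted p = 5.3e-06), 1.10 in the xenografts (adjusted p = 5.19e-04) and 0.42 in sh4 (adjusted p = 0.043).

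**Figure D3:**
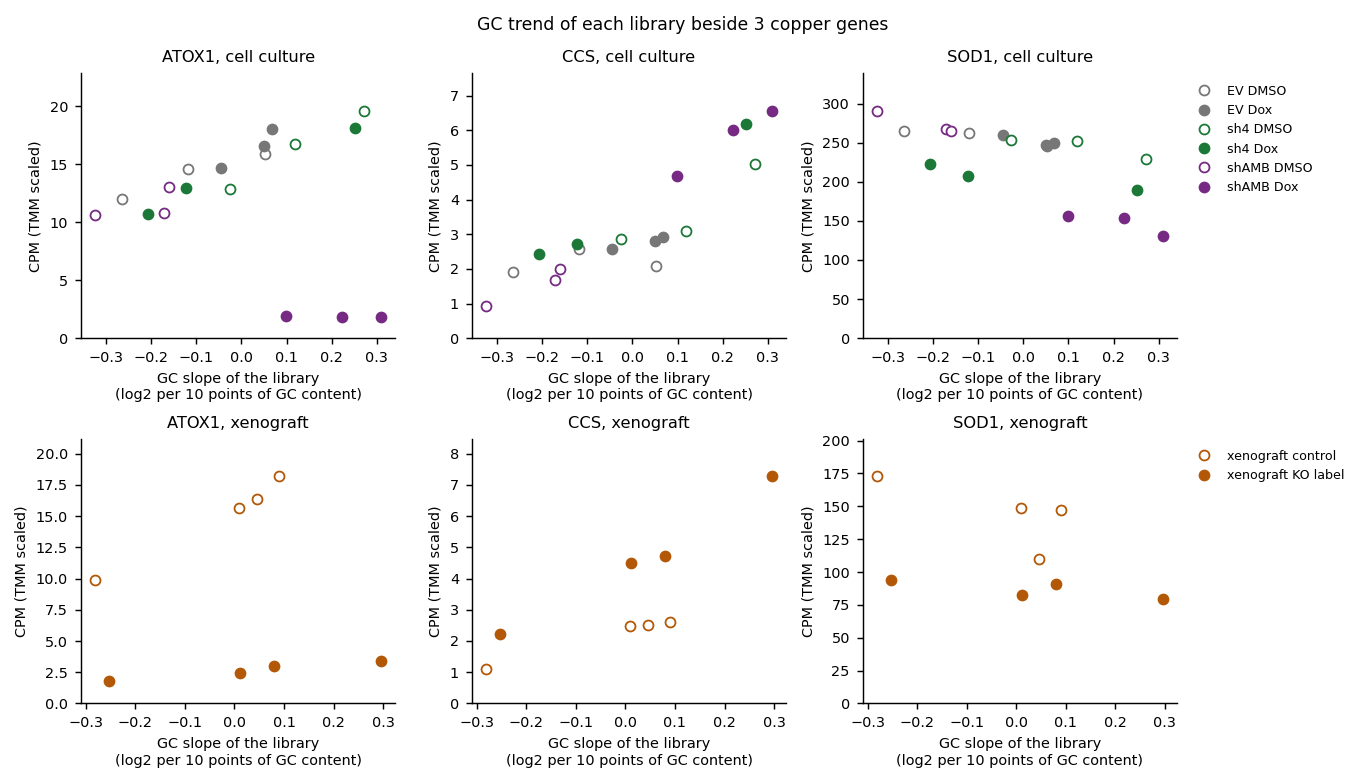
CPM of ATOX1, CCS and SOD1 in each library against the library's GC slope (log2 units per 10 GC points), in culture and in xenografts. CCS is highest at positive slopes in several groups. ATOX1 lies at 1.80 to 1.93 CPM in shAMB with doxycycline, where all slopes are positive, while all slopes with DMSO in that line are negative.

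COX17 (chr3:119654513-119677454, minus strand) measured 45.0, 42.8 and 45.5 CPM in shAMB with DMSO and 40.2, 47.7 and 41.9 CPM with doxycycline. These groups overlapped, and the log2 fold change was -0.04 (95% interval -0.25 to 0.17, edgeR adjusted p = 0.751). In sh4 it measured 54.4, 52.7 and 47.2 CPM against 41.4, 37.5 and 49.3 CPM. It fell there by 0.27 (log2, SE 0.10, adjusted p = 0.0416), although replicate 3 with doxycycline lay within the DMSO range. That call did not last: the adjusted p was 0.0998 to 0.199 without DMSO replicate 1 or 2 or doxycycline replicate 1 or 2, with log2 fold changes of -0.25 to -0.18, and the value turned to 0.07 with the GC and length trends removed. In the xenografts COX17 ranged from 26.7 to 37.3 CPM in controls and from 22.4 to 29.95 CPM in KO-labelled tumours (log2 fold change -0.28, SE 0.13, adjusted p = 0.116). Of its exon bases 20% lie within POPDC2 on the same strand, so reads there could belong to either gene.

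The importers varied little, and of the exporting ATPases ATP7B was called in opposite directions under the 2 hairpins. SLC31A1 (chr9:113221544-113264492) stayed between 38.9 and 50.2 CPM in all 18 culture libraries. In shAMB it measured 44.4, 48.3 and 46.1 CPM with DMSO and 43.9, 42.7 and 38.9 CPM with doxycycline, so every library with doxycycline lay below every DMSO library. The log2 change of -0.14 (SE 0.07, edgeR adjusted p = 0.0678) did not pass the test, although with RLE scaling of the libraries it did (-0.22, adjusted p = 0.0189), with DESeq2 it did (-0.22, adjusted p = 0.0136), and so it did without the filter on low counts (-0.19, adjusted p = 0.0384) or without doxycycline replicate 1 (-0.18, adjusted p = 0.045). In sh4 the change was 0.13 (adjusted p = 0.143), and 0.20 without doxycycline replicate 3 (adjusted p = 0.016). The sh4 effect was higher than that of shAMB by 0.27 (SE 0.09, adjusted p = 0.0213), a call lost without sh4 doxycycline replicate 1 or 2, shAMB DMSO replicate 2 or shAMB doxycycline replicate 3 (0.22 to 0.25, adjusted p = 0.0522 to 0.0597). In the xenografts SLC31A1 was at 30.7 to 33.7 CPM in controls and 27.1 to 33.2 CPM in KO-labelled tumours, with a log2 fold change of -0.02 (95% interval -0.23 to 0.19).

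SLC31A2 (chr9:113150976-113164140, plus strand), which neighbours SLC31A1, was lower, between 2.83 and 4.03 CPM in culture and between 2.69 and 3.80 CPM in the xenografts. It passed the test in no comparison, with log2 fold changes of 0.08 in EV, 0.20 in sh4 (edgeR adjusted p = 0.156), 0.03 in shAMB and 0.14 in the xenografts (in sh4 it did with the length trend removed, at 0.27, adjusted p = 0.0491). Exons of FKBP15 on the opposite strand cover 64% of its exon bases, so its counts could include reads of that gene.

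ATP7A (chrX:77910690-78050395), the pump mutated in Menkes disease, measured 42.9, 48.0 and 47.8 CPM in shAMB with DMSO and 39.6, 36.4 and 37.2 CPM with doxycycline. These groups did not overlap, and the gene fell by 0.29 (log2, SE 0.08, edgeR adjusted p = 0.00476). The change in EV was -0.08, and the shAMB effect differed from it by -0.21 (95% interval -0.45 to 0.03, adjusted p = 0.144), so the fall was not shown to differ from the effect of doxycycline alone. Without EV DMSO replicate 1 that difference was -0.29 (adjusted p = 0.046), and with the GC and length trends removed it was -0.38 (adjusted p = 3.77e-05). In sh4 it measured 40.8, 41.5 and 43.8 CPM against 51.4, 49.3 and 41.1 CPM, and the log2 change of 0.17 (adjusted p = 0.105) did not pass the test unless doxycycline replicate 3 was left out (0.26, adjusted p = 0.00644). The sh4 effect was higher than that of shAMB by 0.46 (SE 0.11, adjusted p = 0.00267). The xenografts went the way of shAMB without passing: 50.1, 46.4, 44.4 and 46.7 CPM in controls against 37.4, 43.9, 41.5 and 38.6 CPM, with no overlap and a log2 change of -0.22 (SE 0.09, adjusted p = 0.069). Without the filter on low counts that value was -0.28 (adjusted p = 0.0307), and with the GC and length trends removed it was -0.39 (adjusted p = 0.00144).

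ATP7B (chr13:51930436-52012125, minus strand), the pump mutated in Wilson disease, was the gene with opposite calls. In sh4 it measured 6.69, 5.47 and 6.05 CPM with DMSO and 3.42, 3.23 and 3.07 CPM with doxycycline. In shAMB it measured 5.27, 5.48 and 5.32 CPM against 7.73, 7.45 and 8.75 CPM. Neither pair of groups overlapped: ATP7B fell by 0.90 in sh4 (log2, SE 0.12, edgeR adjusted p = 1.66e-05), 1.87-fold lower, and rose by 0.57 in shAMB (SE 0.12, adjusted p = 4.47e-04), a fold of 1.49. EV cells showed 5.25, 6.69 and 6.20 CPM against 6.71, 5.51 and 5.22 CPM, which overlapped, with a log2 fold change of -0.05. The sh4 effect differed from EV by -0.85 (SE 0.17, adjusted p = 0.00113), the shAMB effect from EV by 0.63 (SE 0.16, adjusted p = 0.0055), and sh4 from shAMB by -1.48 (SE 0.17, adjusted p = 2.2e-06). With the GC and length trends removed the shAMB value was smaller, 0.27 (adjusted p = 0.0288), and that of sh4 was -0.89 (adjusted p = 2.35e-06).

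The balance of the pumps moved with it. Within a library ATP7B stood at 0.172 to 0.211 of the TPM of ATP7A in sh4 with DMSO and at 0.0841 to 0.0959 with doxycycline. In shAMB the same ratio went from 0.143 to 0.159 with DMSO to 0.251 to 0.302 with doxycycline. In the xenografts ATP7B measured 6.47, 9.01, 8.20 and 7.68 CPM against 9.24, 9.20, 8.39 and 8.73 CPM, which overlapped (log2 fold change 0.18, SE 0.14, edgeR adjusted p = 0.327).

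SOD1 (chr21:31659666-31668931), the copper and zinc enzyme that disarms superoxide in the cytosol, fell in shAMB and in the xenografts, and in sh4 as long as GC and length trends were kept. In shAMB it measured 268, 290 and 266 CPM with DMSO and 156, 153 and 131 CPM with doxycycline. It fell by 0.90 (log2, SE 0.07, edgeR adjusted p = 2.26e-08), 1.87-fold lower, and the groups lay far apart. In the xenografts it measured 173, 110, 147 and 149 CPM in controls and 79.3, 82.1, 91.1 and 93.7 CPM in KO-labelled tumours, again without overlap, and fell by 0.74 (SE 0.13, adjusted p = 9.8e-04), 1.67-fold lower. In sh4 it measured 229, 252 and 254 CPM against 223, 208 and 189 CPM, a fall of 0.25 (SE 0.07, adjusted p = 0.0105), and in EV 266, 262 and 246 CPM against 248, 250 and 260 CPM, with a log2 fold change of -0.03 (95% interval -0.18 to 0.12).

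The fall of SOD1 in shAMB exceeded that in EV by a log2 difference of -0.87 (SE 0.10, edgeR adjusted p = 3.63e-06) and that in sh4 by 0.66 (SE 0.10, adjusted p = 4.41e-05). The sh4 effect differed from EV by -0.22 (SE 0.10, adjusted p = 0.107), so the fall in sh4 was not shown to differ from the effect of doxycycline alone. With the GC and length trends removed SOD1 was at -1.03 in shAMB (adjusted p = 2.46e-06) and at -0.57 in the xenografts (adjusted p = 0.0132), but the sh4 value turned to 0.04 (adjusted p = 0.835). In shAMB all GC slopes were negative with DMSO and positive with doxycycline, so slope and treatment cannot be told apart there. The part of the slope in the SOD1 values was not tested. SOD1 was thus called lower and its chaperone CCS higher, in shAMB and in the xenografts. In the xenografts the CCS groups overlapped, and its call was lost without any 1 of several libraries or with a replicate block.

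The metallothioneins were close to the limit of detection. MT2A (chr16:56608584-56609497) had 12 to 67 counts in the EV and sh4 libraries, 14, 13 and 13 counts in shAMB with DMSO and 8, 11 and 13 with doxycycline. The shAMB groups touched in counts, while in CPM every library with doxycycline lay below every DMSO library, and the log2 change of -0.63 (SE 0.50, edgeR adjusted p = 0.281) did not pass. In sh4 the value was 0.17 (SE 0.36, adjusted p = 0.738) and in EV -0.22. The xenograft libraries held 14, 9, 3 and 11 counts against 5, 7, 8 and 1, and MT2A did not pass the filter on low counts there, so it was not tested.

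MT1X (chr16:56682470-56684196) was higher in shAMB and in the xenografts, at few counts. In shAMB it had 13, 11 and 12 counts with DMSO and 19, 41 and 36 with doxycycline, without overlap. It rose by 1.09 (log2, SE 0.39, edgeR adjusted p = 0.0227), a fold of 2.12, but the call was lost without DMSO replicate 1 or 2 or doxycycline replicate 2 or 3 (log2 fold changes of 0.90 to 1.11, adjusted p = 0.0507 to 0.085). EV cells showed 9, 8 and 11 counts against 17, 18 and 15, also without overlap, a log2 change of 0.83 (SE 0.44, adjusted p = 0.672), and the shAMB effect exceeded that of EV by 0.26 (SE 0.60, 95% interval -1.02 to 1.54, adjusted p = 0.748), so the rise was not shown to differ from the effect of doxycycline alone. In sh4 the counts were 29, 36 and 14 against 18, 44 and 55, which overlapped (log2 fold change 0.68, SE 0.34, adjusted p = 0.123), and without doxycycline replicate 1 the value was 1.00 (adjusted p = 0.0154).

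In the xenografts MT1X had 7, 9, 23 and 11 counts in controls and 24, 25, 43 and 24 in KO-labelled tumours. Scaled to library size these were 0.149 to 0.412 CPM against 0.418 to 0.670 CPM, so the groups did not overlap, by a narrow margin. MT1X was higher by 1.05 (log2, SE 0.37, edgeR adjusted p = 0.0411), a fold of 2.07. With so few counts in the controls, MT1X passed the filter on low counts only through the KO-labelled group, where it was high. The test is thus no independent support for a rise. The call was lost with DESeq2 (1.06, adjusted p = 0.073), without the filter on low counts (0.98, adjusted p = 0.0832) and without control replicate 1, 2 or 4 or KO-labelled replicate 2, 3 or 4 (0.86 to 1.11, adjusted p = 0.0585 to 0.137). Both genes lie in a cluster of 11 coding metallothionein genes at chr16:56565073-56684196. The 10 other metallothionein genes of the tables never exceeded 2 counts in culture or 6 in the xenografts, and none was tested. Metallothionein genes are near copies of each other, so reads could be split between them.

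**Figure D4:**
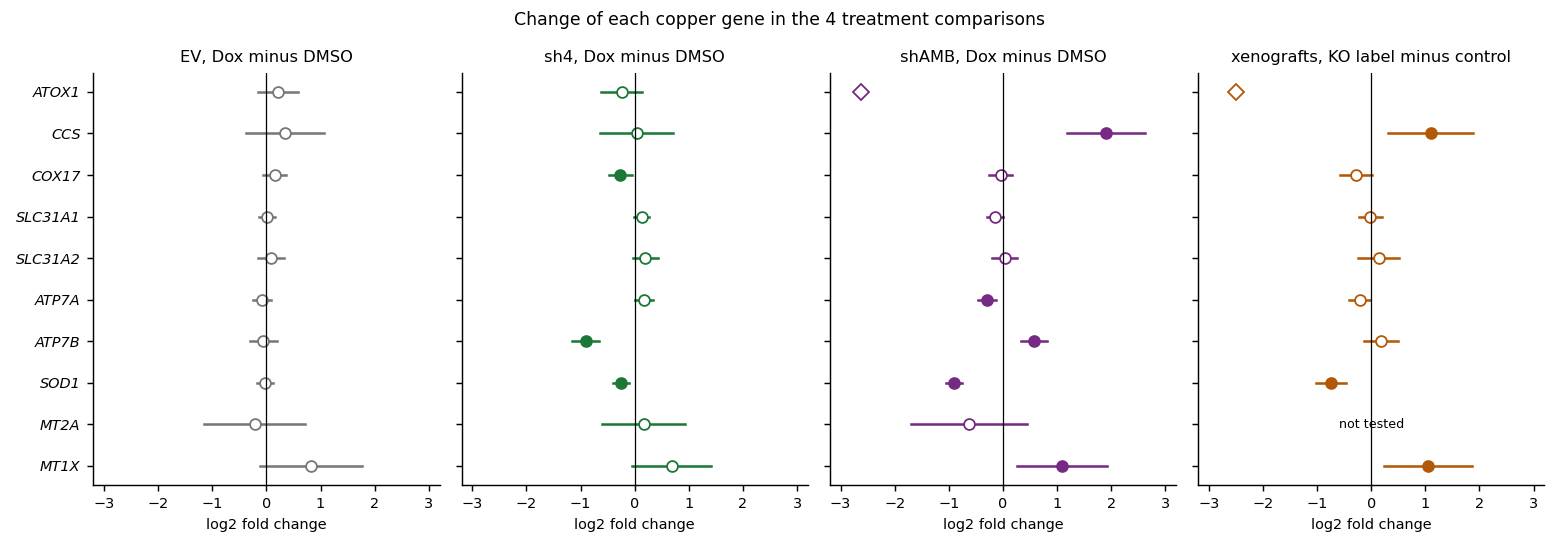
Log2 fold change of the 10 genes with its 95% interval for doxycycline against DMSO in EV, sh4 and shAMB and for KO-labelled against control xenografts, with filled points at an adjusted p under 0.05 and diamonds without an interval where ATOX1 is only described. SOD1 is at -0.90 in shAMB, -0.74 in the xenografts and -0.25 in sh4 (0.04 with GC and length trends removed), whereas ATP7B is at -0.90 in sh4 and 0.57 in shAMB.

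The number of these genes that passed is set here against the share of all genes that did. In EV 0 of the 10 passed edgeR's test, where 0.0939% of 14905 genes did. None of the 10 was under an unadjusted p of 0.05 in EV, where 879 of the 14905 genes were, and DESeq2 called 0. In sh4 3 of 10 passed, all lower (COX17, ATP7B and SOD1), where 40.9% of all genes passed, 22.9% higher and 18% lower. Without sh4 doxycycline replicate 3 the count was 6 of 10, in a fit whose share of all genes is not given here. In shAMB 5 of the 9 genes other than ATOX1 passed, 3 higher (CCS, ATP7B and MT1X) and 2 lower (ATP7A and SOD1), against 66% of all genes, 37.6% higher and 28.4% lower. In the xenografts 3 of 8 passed, 2 higher (CCS and MT1X) and 1 lower (SOD1), against 41.1% of 15960 genes, 21.2% higher and 19.9% lower (3382 and 3173 genes, or 4254 and 2480 with upper quartile scaling). MT1X is counted there although it passed the filter on low counts only through the group where it was high. The count was 1 of 8 without control replicate 1, 2 or 4 or KO-labelled replicate 2 or 3. The shares of all genes belong to the fits of all libraries, so they are no background for counts without 1 library. The median log2 fold change of the tested members was -0.04 in shAMB, 0.08 in sh4 and 0.06 in the xenografts, beside medians over all genes of 0.10, -0.0046 and 0.02.

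The doxycycline effects themselves were also compared between lines, in comparisons that share the EV or the hairpin libraries. Sh4 differed from EV in 2 of 10 genes, COX17 and ATP7B, where 32.6% of all genes differed. The COX17 difference of -0.42 (SE 0.14, edgeR adjusted p = 0.0331) was lost without EV DMSO replicate 1, EV doxycycline replicate 1 or 2, sh4 DMSO replicate 1 or 2 or sh4 doxycycline replicate 1 or 2 (-0.41 to -0.33, adjusted p = 0.0619 to 0.0931). ShAMB differed from EV in 3 of 9 genes (CCS, ATP7B and SOD1), where 45.5% of all genes did, and sh4 from shAMB in 5 of 9 (CCS, SLC31A1, ATP7A, ATP7B and SOD1), where 60.9% did. With DMSO alone, 0 of 10 genes passed between sh4 and EV, where 1.12% of all genes did, and DESeq2 called 0. Under an unadjusted p of 0.05 were 4 of the 10, and 4180 of all 14905 genes. Between shAMB and EV with DMSO, edgeR called 0 of 10 where 1.52% of all genes passed, and DESeq2 called 0. Under an unadjusted p of 0.05 were 0 of the 10, and 1639 of all 14905 genes.

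Other genes of copper, zinc and redox biology were taken from lists of 8 kinds. In EV 0 of the 91 of these genes that were tested passed edgeR's test and DESeq2 called 0. Under an unadjusted p of 0.05 were 2 of the 91, and 879 of all 14905 genes. For these lists no values with GC and length trends removed are given, and the part of the GC slope in them was not tested. Genes that deliver copper to cytochrome c oxidase were called in 1 direction only. Of 10 tested, 7 fell in shAMB, 3 in sh4 and 4 in the xenografts and none rose, with list medians of -0.24, 0.03 and -0.27. Of all genes 28.4% were called lower in shAMB, 18% in sh4 and 19.9% in the xenografts. The doxycycline effect differed from that of EV in 4 of the 10 in shAMB and in 3 of the 10 in sh4, all lower. Of all genes 45.5% and 32.6% differed from EV in these lines. SLC25A3, the mitochondrial carrier of phosphate and copper, fell by 0.35 in sh4, by 1.03 in shAMB and by 1.08 in the xenografts (log2, adjusted p = 5.69e-04, 3.34e-09 and 7.42e-05). COX16, an assembly factor of cytochrome c oxidase, fell by 0.55 in shAMB and by 0.49 in the xenografts.

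Enzymes that use copper were called mostly higher. In sh4 4 rose and 2 fell of 10 tested, in shAMB 7 rose and 1 fell of 10, and in the xenografts 5 rose and 1 fell of 11, with list medians of 0.27, 0.66 and 0.28. Of all genes 22.9%, 37.6% and 21.2% were called higher and 18%, 28.4% and 19.9% lower in these 3 comparisons. The doxycycline effect differed from that of EV in 4 of 10 in shAMB, all higher, where 45.5% of all genes differed. In sh4 it differed in 4 of 10, 3 higher and 1 lower, where 32.6% of all genes did. LOX, which crosslinks collagen, rose by 0.73 in sh4 and by 0.73 in the xenografts, and the amine oxidase AOC2 by 1.78 in shAMB and 0.93 in the xenografts. AOC3, a related amine oxidase, rose by 1.62 in shAMB and by 1.75 in the xenografts. Fibroblast markers, whose part in these values was not tested, summed to 43.1 to 52.4 CPM in sh4 with DMSO and 68.2 to 86.9 CPM with doxycycline, 47.9 to 56.3 and 34.5 to 41.2 CPM in shAMB, and 15.5 to 27.1 and 19.9 to 32.1 CPM in the xenografts. Among genes of copper uptake and ATPase trafficking 5 rose and 1 fell of 8 in sh4, 2 rose of 8 in shAMB, and 2 rose and 1 fell of 10 in the xenografts (medians 0.25, 0.11 and -0.07), beside the same shares of all genes. The metal reductase CYBRD1 rose by 0.97 in sh4 (adjusted p = 9.32e-06) and fell by 0.78 in the xenografts, and STEAP4, another metalloreductase, rose by 2.57 there (adjusted p = 7.08e-05).

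Redox genes were called mostly lower. Of 13 genes against superoxide and peroxide, 4 fell in sh4 and none rose, 6 fell and 2 rose in shAMB, and 6 fell and 1 rose in the xenografts (medians -0.36, -0.14 and -0.50). The shares of all genes called lower were 18%, 28.4% and 19.9%, and those called higher 22.9%, 37.6% and 21.2%. The peroxiredoxin PRDX1 fell by 1.15 in shAMB and by 0.93 in the xenografts, and catalase, CAT, by 0.76 and 0.72, whereas the glutaredoxin GLRX rose by 1.68 in shAMB (adjusted p = 1.69e-10). PRDX6 fell by 0.65 in sh4. Of 12 NRF2 and glutathione genes, 4 fell and 2 rose in sh4, 8 fell and 1 rose in shAMB and 8 fell in the xenografts (medians -0.12, -0.41 and -0.39), against those same shares. NQO1, a quinone reductase, fell by 0.79 in sh4, by 1.25 in shAMB and by 1.51 in the xenografts (adjusted p = 3.58e-08, 7.96e-11 and 4.09e-05).

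The remaining lists held calls in both directions, except for lipoylation and copper toxicity in the xenografts. They stand beside 40.9%, 66% and 41.1% of all genes called in either direction in sh4, shAMB and the xenografts (22.9%, 37.6% and 21.2% higher). Of 10 genes of lipoylation and copper toxicity, 4 fell and 1 rose in sh4, 6 fell and 1 rose in shAMB and 2 fell in the xenografts (medians -0.01, -0.24 and -0.05), with GCSH, a carrier of the lipoyl group, down by 0.83 in shAMB. Of metal-sensing and zinc transport genes, 9 rose and 3 fell of 20 in sh4, 6 rose and 6 fell of 20 in shAMB and 4 rose and 6 fell of 19 in the xenografts (medians 0.19, 0.09 and 0.05). MTF1 rose by 0.60 in sh4 (adjusted p = 2.99e-07). Its doxycycline effect exceeded that of EV by 0.63 in sh4 and by 0.40 in shAMB (log2, edgeR adjusted p = 1.59e-05 and 4.7e-04). The part of MTF1 in the metallothionein values was not tested. The zinc importer SLC39A1 fell by 1.20 in sh4, by 0.50 in shAMB and by 0.63 in the xenografts. Of 8 glucocorticoid-induced genes, a class to which metallothioneins also belong, 2 rose and 3 fell in sh4, 5 rose and 2 fell in shAMB and 3 rose and 2 fell in the xenografts (medians -0.15, 0.55 and 0.39). TSC22D3 rose by 0.25, 0.83 and 0.79 in the 3 comparisons, while FKBP5 fell by 0.40, 0.57 and 0.63.

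**Figure D5:**
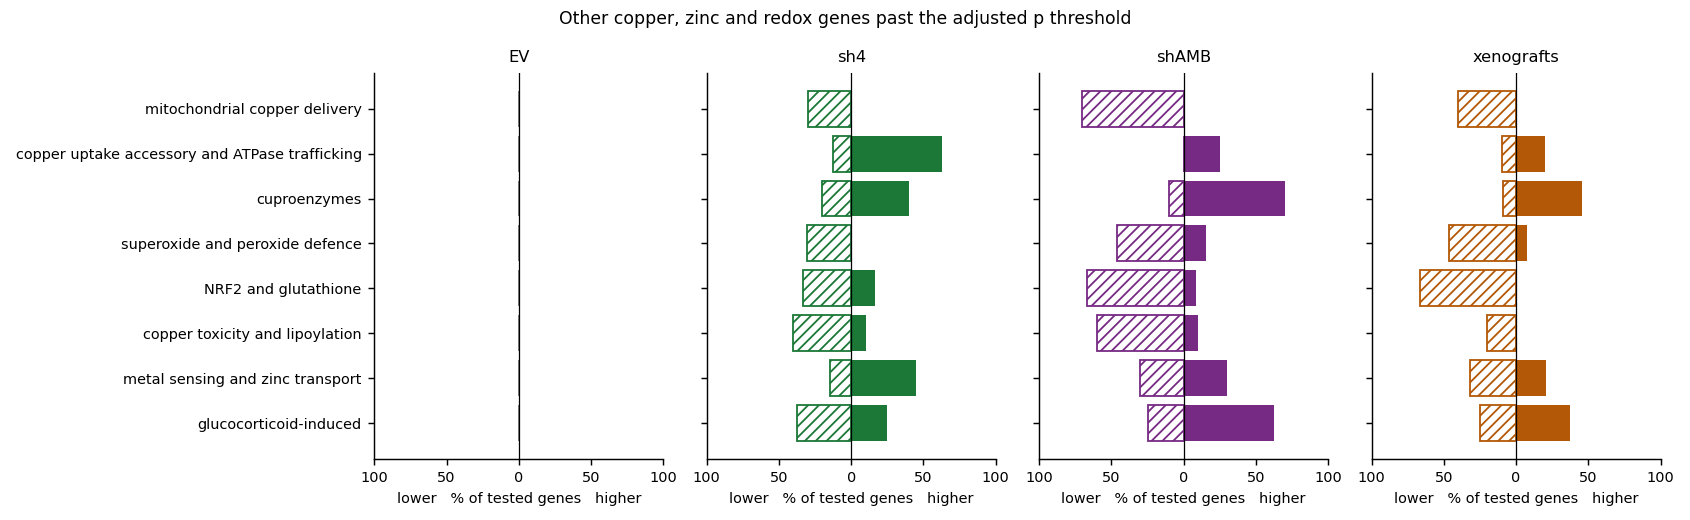
Percent of the tested genes of each of 8 lists called higher (filled) or lower (hatched) by edgeR in EV, sh4, shAMB and the xenografts. No bar appears for EV, and mitochondrial copper delivery has lower calls only, 7 of 10 in shAMB.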

How the data were processed

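The 10 genes and the lists of related genes were chosen with earlier results of these data known. The authors aligned reads to hg38 and counted genes with STAR, SAMtools and RSEM, per the labels' processing notes (versions not given). The deposited values are RSEM expected counts per gene, TPM that the authors scaled for transcript length and library, and a length column (unit other). The culture and xenograft tables were made separately, and tests stay within a table. In the culture tables a heading ending in Neg was taken for DMSO and Pos for doxycycline. Whether counting used strand, and how mouse reads were treated, is not given in the sources used here. The labels name polyA RNA and the study a total RNA kit, which was not resolved.

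Expected counts were rounded (91.8% and 91.0% of the deposited values were whole, and all those of the 10 genes), filtered with filterByExpr (14905 and 15960 genes kept) and TMM-scaled (factors 0.974 to 1.07 and 0.936 to 1.09). They were tested with edgeR 4.0.16 (quasi-likelihood, R 4.3.3) with a mean per group, in 1 fit of 18 culture and 1 of 8 xenograft libraries. Adjusted p is Benjamini-Hochberg over all genes tested, with calls under 0.05. No test is given for ATOX1 in shAMB or the xenografts, since these values chose it. No libraries were identical. Named genes are the 10 members, RUNX1T1, at most 3 genes per list and comparison by adjusted p, the neighbours of ATOX1 and the 5 genes most correlated with it (log2 CPM, prior count 2). G3BP1, which overlaps ATOX1, falls outside that rule and was named after its values were seen. MT2A failed the xenograft filter, so genes like it were not sought. Alternatives were RLE (as in DESeq2 1.42.0) and upper quartile scaling, no filter on low counts, DESeq2, a gene length trend removed, a replicate block, each library left out, and, chosen after seeing the data, GC and length trends removed (GC known for 87.4% of genes). On simulated data the test recovered 82.8% of genes changed by 1 log2 unit and 99% of those changed by 2 in the shAMB comparison (14657 genes, 7 false calls), and 77% and 99.0% in the xenografts (15837 genes, 2 false calls). Few genes were changed there, in both directions, and no GC trend was put in. The simulation thus does not cover comparisons with 66% or 41.1% of genes called, or libraries that differ in GC slope. Figures were drawn with matplotlib 3.10.9 in Python 3.11.15.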

Additional observations from a re-analysis of the deposited data

Results flagged for a closer look

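In groups of 4 libraries, 1 library was far from the rest in 2 of the 20 groups tested, where chance flags about 1 in 20: CCS in control xenograft replicate 1 (1.11 CPM, the next at 2.48 CPM) and SLC31A1 in KO-labelled xenograft replicate 1 (27.1 CPM, the next at 32.4 CPM). Those libraries had the lowest and the highest GC slope of the xenografts, -0.281 and 0.296. The part of the slope in these values was not tested.

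The doxycycline effect differed between lines in 10 cases by edgeR's test of the difference. Sh4 minus EV gave -0.42 for COX17 and -0.85 for ATP7B (log2). ShAMB minus EV gave 1.56 for CCS, 0.63 for ATP7B and -0.87 for SOD1. Sh4 minus shAMB gave -1.86 for CCS, 0.27 for SLC31A1, 0.46 for ATP7A, -1.48 for ATP7B and 0.66 for SOD1. The differences of COX17 and SLC31A1 were lost when 1 of several libraries was left out or with a replicate block.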

How the results depend on the processing

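Of 829 values of single genes under the alternatives, 732 kept direction and side of the threshold, 42 lost a call, 19 gained one, 34 turned in sign and 2 moved. Leaving out single libraries gave 2 to 6 calls in sh4 (6 without sh4 doxycycline replicate 3, against 3), 1 to 4 for sh4 minus EV and 1 to 3 in the xenografts (1 without control replicate 1, 2 or 4 or KO-labelled replicate 2 or 3). For these fits no share of all genes is given. Sh4 minus EV gave 1 call with the length trend removed, with GC and length removed and with the replicate block. Of all 14905 genes 4788, 6312 and 2713 were called there. ShAMB minus EV gave 5 calls with GC and length removed, where 8540 of all genes were called. With GC and length removed sh4 again gave 3 calls, where 7990 of all genes were called, but COX17 and SOD1 left and CCS and MT1X (1.10) entered. For the order of the genes in EV cells with DMSO, the only group compared, CPM per kb in place of TPM kept 6 of 10 ranks. Over all genes, calls moved from 14 to between 2 and 38 in EV, from 167 to 257 (length), 622 (GC and length) and 349 (DESeq2) between sh4 and EV with DMSO, from 227 to 724 (GC and length) between shAMB and EV with DMSO, and from 4856 to 2713 for sh4 minus EV with the replicate block. Values that turned in sign were these. In EV, SLC31A1 was -0.012 with RLE and -0.013 with DESeq2 and ran from -0.030 to 0.063 without 1 library, ATP7A was 0.032 with GC and length removed, and without 1 library ATP7B ran from -0.17 to 0.025 and MT2A from -0.52 to 0.075. In sh4, ATOX1 was 0.037 with length and 0.021 with GC and length removed, COX17 0.028 and 0.074, and SOD1 0.036 with GC and length removed, while without 1 library CCS ran from -0.51 to 0.32 and MT2A from -0.37 to 0.45. In shAMB, COX17 was 0.0090 with upper quartile scaling, 0.015 with length and 0.043 with GC and length removed and ran from -0.12 to 0.0092 without 1 library, and SLC31A2 was -0.042 with RLE, -0.043 with DESeq2 and -0.012 with no filter and ran from -0.030 to 0.090. COX17 in sh4 minus EV was 0.0080 with GC and length removed, SOD1 there 0.0011 with length and 0.21 with GC and length removed, and SLC31A1 in the xenografts 0.078 with upper quartile scaling and -0.060 to 0.040 without 1 library. The cause was not tested. Deviations of same-numbered libraries from their group means had correlations of -0.603 to 0.374. Between unlike-numbered sh4 libraries they reached 0.601. With 3 or 4 libraries per group this cannot show whether the numbers pair the libraries. The replicate block ended the calls of COX17 in sh4 (-0.28, adjusted p = 0.112) and sh4 minus EV (-0.43), MT1X in shAMB (1.05, adjusted p = 0.0615), SLC31A1 in sh4 minus shAMB (0.27) and CCS in the xenografts (1.03, adjusted p = 0.105), turned CCS in sh4 to -0.039, and changed no other call. Depth limits the metallothioneins, at 1 to 67 counts per library.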
